A study of Mus musculus with 59 samples.

Results

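Neurons carrying SOD1_G93A, a mutant form of the antioxidant enzyme superoxide dismutase 1 that causes amyotrophic lateral sclerosis, were compared with wild-type neurons when both were grown with wild-type glia. The comparison used 8 libraries of neuronal RNA out of the 59 libraries of the series: 3 of SOD1_G93A neurons, 1 each at 3, 7 and 14 days, and 5 of wild-type neurons, 1 at day 3 and 2 each at days 7 and 14. The cultures were sandwiches in which neurons and glia were partners and the RNA of 1 of them was sequenced. All 8 cultures had wild-type glia, so the neurons' genotype was the labelled difference. Neurons of both genotypes were also grown with SOD1_G93A glia (6 libraries each), and those 12 libraries, none of which is among the 8, are set beside the result. The labels do not give how the neurons were obtained or how many animals, lines or cultures the libraries came from, so the genotype and the origin of each batch of neurons cannot be told apart, and the p-values reflect how far these libraries vary among themselves, which can be a technical spread.

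Spinal motor neurons form from progenitors of the ventral spinal cord under the influence of Sonic hedgehog from the floor plate and of retinoic acid, while neighbouring progenitor domains give rise to interneurons, many of them inhibitory. Mature motor neurons are rich in neurofilaments, the intermediate filaments of the axon built from light, medium and heavy subunits, and neurofilament abnormalities are a known feature of the disease. Genes of the germline are normally silent in neurons, and imprinted genes are expressed from 1 parental copy, in both cases with DNA methylation as a known means of control. Mouse chromosome 11 carries, among many others, the Hoxb cluster, Gfap and Nefh, while Sod1 itself lies on chromosome 16.

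The depth on genes came to 7.92, 16.2 and 8.15 M reads in the libraries of mutant neurons at days 3, 7 and 14, against 7.35 to 16.4 M in those of wild-type neurons. The summed level of 20 general neuronal genes was 1767 to 8044 RPKM (reads on a gene scaled to its length and to the depth of the library) in mutant and 1231 to 11710 in wild-type neurons, against 231.9 to 653.9 in the 23 libraries of glia, and none of the 20 was at 0 in all 8 libraries. That of 20 genes of motor neuron identity was 391.5 to 1691 and 258.2 to 1943, against 38.6 to 83.8 in glia. In both genotypes these sums were lowest at day 14. The same libraries held markers of other cells: 12 astrocyte genes summed to 421.6 to 1519 RPKM in mutant and 321.4 to 1855 in wild-type neurons, 13 microglial genes to 466.7 to 1173 and 137.3 to 2825, and 11 fibroblast genes to 244.1 to 2123 and 415.2 to 1448, with overlap between the genotypes in each case. In bulk RNA, fewer cells of a type cannot be told apart from less RNA per cell. Values below are RPKM rescaled by median-of-ratios factors, which were 1.41 and 1.48 in the mutant and wild-type libraries of day 3 and 0.852 to 0.939 in the other 6. Both day 3 libraries are numbered replicate 1. On mutant glia, factors over 20 libraries were 1.58 (mutant) and 1.67 (wild-type) in replicate 1 of day 3, against 0.829 and 0.815 in replicate 2. Differences below between day 3 and later days therefore cannot be told apart from differences between such libraries.

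The most widespread difference lay on 1 chromosome. Genes of chromosome 11 were higher in mutant neurons: the median log2 change, mutant minus wild-type with day taken into account, was 0.36 over 1087 genes, against -0.03 over 12003 genes of the other chromosomes. Of the chromosome 11 genes, 1002 (92.2%) had a change above 0, where 44.5% of the genes elsewhere did. Their 10th and 90th percentiles were 0.05 and 0.63. The other autosomes and the X chromosome had medians between -0.08 (X) and 0.02 (chromosome 8). The mutant library was above every wild-type library of its own day on all 3 days for 537 chromosome 11 genes (49.4%) and below on all 3 days for 5 (0.46%). Over all 14383 genes tested these shares were 8.27% and 7.58%, and over those of other chromosomes 4.72% and 8.06%.

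**Figure D1:**
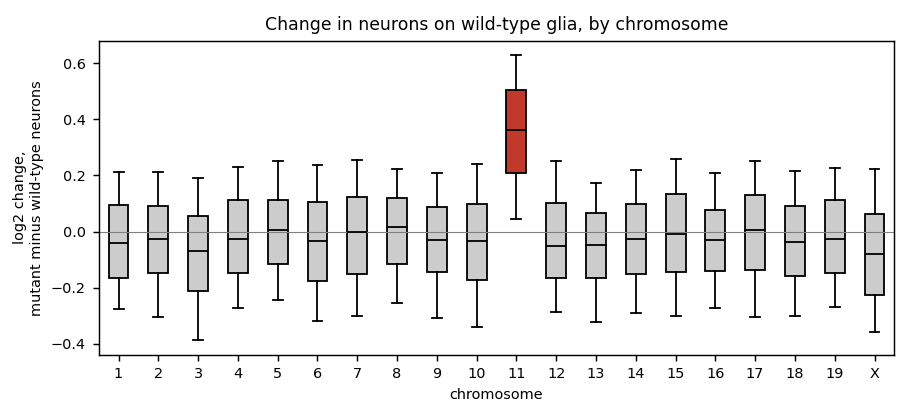
Log2 change between mutant and wild-type neurons on wild-type glia (vertical axis) for the genes of each chromosome (horizontal axis). Boxes span the quartiles, the line is the median and whiskers reach the 10th and 90th percentiles; chromosome 11 (red) has a median of 0.36 and its lower quartile of 0.21 lies above the upper quartile of every other chromosome.

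The whole length of the chromosome took part. In windows of 20 Mb from one end to the other, with genes from 3.03 to 121.6 Mb (mm9), the median log2 change was 0.31 to 0.42 and the share of genes above 0 was 86.0% to 95.5%. The pseudocount of 1 shrinks the change of low genes, so the size is best read from genes with a mean of 10 or more: without a pseudocount their median was 0.41 on chromosome 11 (623 genes) and -0.05 elsewhere (5847 genes), a difference of 0.47, or 1.38-fold. The same fold in bins of expression level was 1.35 under 2 RPKM, 1.36 at 2 to 5, 1.38 at 5 to 10 and at 10 to 20, 1.40 at 20 to 50 and 1.37 at 50 and over. At days 3, 7 and 14 the medians on chromosome 11 were 0.40, 0.34 and 0.36, against -0.04, -0.001 and -0.04 on the other chromosomes, from libraries that no 2 days share.

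Each library showed it on its own. A chromosome 11 score was taken as the median log2 level of the chromosome 11 genes with a mean of 10 or more, relative to their mean over the 20 neuron libraries, minus that of such genes elsewhere. It was 0.32, 0.24 and 0.22 in mutant neurons at days 3, 7 and 14, against -0.16 at day 3, -0.22 and -0.19 at day 7 and -0.24 and -0.21 at day 14 in wild-type neurons. On mutant glia it was 0.17 to 0.34 in the 6 libraries of mutant neurons and -0.23 to -0.16 in the 6 of wild-type neurons. All 9 libraries of mutant neurons lay above all 11 of wild-type neurons, whichever glia they were grown with. In libraries of glial RNA, scored in the same way among themselves, it was -0.03 to 0.03 in 12 libraries of mutant glia and -0.02 to 0.02 in 11 of wild-type glia, which overlapped. Of the other chromosomes, scored likewise in the 8 libraries, chromosomes 14 and X were lower in every mutant library than in any wild-type one, chromosome 14 at -0.094 to 0.0057 against 0.0068 to 0.028 and X at -0.10 to -0.02 against -0.01 to 0.11, and the remaining 17 overlapped.

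**Figure D2:**
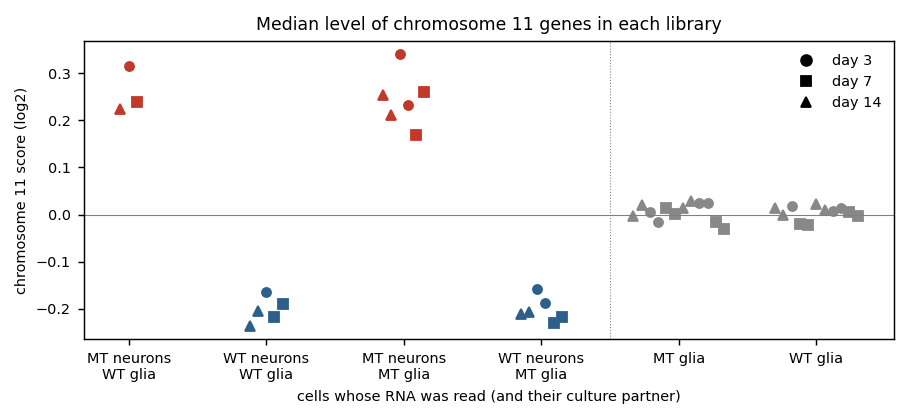
Chromosome 11 score (log2, vertical axis) of each library of neurons and of glia, by genotype and partner (horizontal axis); each point is 1 library and its shape the day. The libraries of mutant neurons lie between 0.17 and 0.34, those of wild-type neurons between -0.24 and -0.16, and those of glia, scored among themselves, near 0.

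Few single genes passed the test, which had 4 residual degrees of freedom in the 8 libraries. limma with Benjamini-Hochberg adjustment called 2 genes (0.0139% of 14383), 1 higher and 1 lower (0.00695% each), while 1293 (8.99%) had an unadjusted p under 0.05, 800 of them higher (5.56%) and the rest lower (3.43%). On chromosome 11 513 genes had one with a higher level in mutant neurons and 2 with a lower level (47.4% of 1087 together), against 240 and 432 elsewhere (5.6% of 12003). Taking the spread from all 20 neuron libraries called 42 genes (0.282% of 14881), 38 higher (0.255%) and 4 lower (0.0269%) in mutant neurons on wild-type glia. Of these, 31 of the higher and 1 of the lower lie on chromosome 11, 6 of the higher and 2 of the lower on other chromosomes, and 2 carry no chromosome here. The count depends on single libraries: leaving out 1 of the 8 left 6 to 26 calls, and without the day 3 libraries 5. For called genes, log2 changes and adjusted p-values below are from this model unless stated, and the named genes were chosen after its values had been seen. Groups that do not overlap were a condition for naming Cyct, Rec8, Nxf3, Capn11, Wdfy1 and Aoc3. The same held for the 8 higher genes of chromosome 11 named first, so the separation of these groups is not a further result.

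The called chromosome 11 genes had modest and even changes. The largest rise was that of Ghdc, with 12.2, 15.3 and 17.9 in mutant neurons at days 3, 7 and 14, against 4.81 at day 3, 5.94 and 6.89 at day 7 and 9.45 and 8.81 at day 14 in wild-type neurons. Its log2 change was 1.08 ± 0.21 (SE), with an adjusted p of 0.0426. Every mutant library was above every wild-type one, the closest pair being mutant neurons of day 3 and wild-type neurons of day 14. Car10, a carbonic anhydrase-related protein of the nervous system, had 5.69, 5.46 and 3.88 in mutant neurons, against 2.93, 2.58, 1.28, 1.63 and 1.68 in wild-type neurons, and a log2 change of 0.95 ± 0.19 (SE), with an adjusted p of 0.0448. Aarsd1, an editing factor for misacylated alanyl-tRNA, had 62.7, 35.6 and 35.4 in mutant neurons, against 34.4, 19.9, 22.2, 20.8 and 16.4 in wild-type neurons, and Mpg, the glycosylase that starts base excision repair of alkylated DNA, had 16.7, 11.2 and 10.995 in mutant neurons, against 8.50, 5.87, 7.45, 6.14 and 6.04 in wild-type neurons. Their log2 changes were 0.83 ± 0.14 and 0.77 ± 0.12 (SE; adjusted p = 0.0238 and 0.0105), and neither gene's groups overlapped.

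Cep131, a protein of centriolar satellites, rose by 0.82, Gp1ba, a platelet glycoprotein of low level here, by 0.77, Pgs1, an enzyme of cardiolipin synthesis, by 0.76, and Myo18a, an unconventional myosin, by 0.73 on the log2 scale, with adjusted p-values of 0.0426, 0.0467, 0.0242 and 0.0306. All 3 mutant libraries exceeded all 5 wild-type libraries for each of the 4, which the rule for naming required. The proteasome subunit Psmd3, the Mediator subunit Med24, the histone acetyltransferase Kat2a and Senp3, a protease that removes SUMO, were also among the 31, with log2 changes of 0.58, 0.58, 0.56 and 0.55. None of the 31 was called in every alternative of this model, and none was when the 1 mutant library of day 3 or of day 14 was left out, while the median over the chromosome stayed between 0.34 and 0.37.

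One chromosome 11 gene went the other way and was among the most stable calls of all. Aoc3 (chr11:101191919-101203253), a copper amine oxidase known as vascular adhesion protein, had 0.492, 0.218 and 0.247 in mutant neurons at days 3, 7 and 14, against 1.99 at day 3, 2.69 and 2.65 at day 7 and 1.93 and 2.89 at day 14 in wild-type neurons. The recovered counts behind these values were 21, 18 and 11 reads in mutant neurons, against 77, 238, 207, 97 and 157 in wild-type neurons. It fell by 1.37 ± 0.16 (SE) on the log2 scale (adjusted p = 5.28e-04), with the groups well apart. Among the 8 libraries, Aoc3 reached the minimum of 1 RPKM for testing in wild-type ones only. Its call held with no filter on low values. Of the 85 genes of the chromosome with a change under 0, 2 had an unadjusted p under 0.05: Aoc3 and Vtn, the adhesive serum protein vitronectin, whose log2 change was -1.17 ± 0.48 (SE; adjusted p = 0.518) in limma's fit of the 8 libraries. Col1a1, a fibrillar collagen, was lower by value too, at 15.5, 11.5 and 54.994 in mutant neurons, against 34.8, 77.997, 33.3, 52.3 and 24.7 in wild-type neurons, with overlap and an adjusted p of 0.688.

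Outside chromosome 11, 6 genes rose, and among them Cyct, Rec8 and Capn11 are best known from the testis and germline. Cyct (chr2:76191999-76198508, mm9), the cytochrome c of male germ cells, was the gene called higher in the 8 libraries alone. It had 12.3, 3.35 and 3.49 in mutant neurons at days 3, 7 and 14, against 2.20 at day 3, 0.240 and 0.0907 at day 7 and 0.141 and 0.261 at day 14 in wild-type neurons. The counts behind them were low, at 74, 39 and 22 reads in mutant neurons, against 12, 3, 1, 1 and 2 in wild-type neurons. Of the wild-type libraries only that of day 3 reached 1 RPKM, so Cyct met the minimum of 2 libraries with mutant ones. With the spread of 20 libraries its call was lost with no filter on low values. Each mutant library lay above every wild-type library, and in both genotypes day 3 was the highest. The log2 change was 1.94 ± 0.14 (SE; adjusted p = 0.00965) in limma's fit of the 8 libraries and 2.01 ± 0.40 (adjusted p = 0.0426) with the spread of 20. The call was lost, at adjusted p-values of 0.0588 to 0.247 by limma, on leaving out any of the 3 mutant libraries, the wild-type library of day 3, replicate 1 of day 14 or replicate 2 of day 7, or the whole of day 3, and at a pseudocount of 0.1 (0.0747) and with voom (0.0775). Over 15 alternatives, which leave out the replicate block and the minimum mean of 5 that Cyct does not reach, the adjusted p ran from 0.00903 to 0.247 and the log2 change from 1.80 to 3.38.

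Rec8 (chr14:56236874-56244233), the cohesin subunit that holds sister chromatids together in meiosis, had 30.1, 21.7 and 30.1 in mutant neurons at days 3, 7 and 14, against 12.9 at day 3, 9.21 and 7.77 at day 7 and 7.28 and 9.06 at day 14 in wild-type neurons. Its level was about the same on all days in mutant neurons and above the wild-type libraries of each day. The log2 change was 1.44 ± 0.16 (SE), with an adjusted p of 4.85e-04, and it stayed called in 16 of 17 alternatives of the 20-library model. Nxf3 (chrX:132606638-132619795), of the family of mRNA export factors, had 8.78, 7.63 and 1.56 in mutant neurons at days 3, 7 and 14, against 0.321 at day 3, 0.0701 and 0.0595 at day 7 and 0 and 0.0571 at day 14 in wild-type neurons, with 242, 406 and 45 reads in mutant neurons, against 8, 4, 3, 0 and 2 in wild-type neurons. It was under 1 RPKM in every wild-type library, so among the 8 it reached the minimum of 1 RPKM for testing in mutant libraries only. The log2 change of Nxf3 was 2.35 ± 0.31 (SE), with an adjusted p of 0.00152, and the call held with no filter on low values. Capn11 (chr17:45767153-45796275), a calpain of the testis, had 4.66, 5.43 and 5.30 in mutant neurons, against 1.67, 1.05, 1.56, 2.07 and 1.72 in wild-type neurons, in day order. Its log2 change was 1.22 ± 0.17 (SE), with an adjusted p of 0.00296, and it was flat over time in both genotypes.

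In the list of germline genes the direction of the median depended on day 3. Of 54 genes listed, 14 were at a testable level, 10 of 14 had a change above 0 (48.1% of all genes tested did) and Rec8 alone was called. The median of the list, 0.23, was -0.06 without the mutant library of day 3. Tex19.1, a mammal-specific germ cell protein on chromosome 11, had 8.57, 2.03 and 1.07 in mutant neurons, against 4.74, 0.120, 0.0340, 0.0529 and 0.440 in wild-type neurons, and Sohlh2, a transcription factor of early germ cells, had 8.08, 0.789 and 0.398 in mutant neurons, against 4.75, 0.156, 0.0253, 0.0393 and 0.145 in wild-type neurons. Both were highest at day 3 in each genotype, both were above the wild-type libraries of the same day on all 3 days, and neither was called (1.02 ± 0.20 (SE; adjusted p = 0.244) and 0.57 ± 0.15 (SE; adjusted p = 0.343) by limma in 8 libraries). Each reached 1 RPKM in 1 wild-type library only, that of day 3, as did the higher members Syce1 and Taf7l. The minimum of 2 libraries was therefore met with mutant ones, which for Sohlh2, Syce1 and Taf7l was that of day 3 alone. The count of 10 of 14 above 0 carries this limit. The 250 bases before the start of Cyct, Rec8 and Capn11, the called genes of this kind with an entry, and of Tex19.1 are shown so that their sequences can be set side by side. They are from RefSeq (GRCm38.p6, 5′ to 3′ on the gene's strand), and the capitals mark TCCCGC or its reverse complement, the hexamer of E2F-type sites:
Cyct (chr2:76360454-76360703, minus strand): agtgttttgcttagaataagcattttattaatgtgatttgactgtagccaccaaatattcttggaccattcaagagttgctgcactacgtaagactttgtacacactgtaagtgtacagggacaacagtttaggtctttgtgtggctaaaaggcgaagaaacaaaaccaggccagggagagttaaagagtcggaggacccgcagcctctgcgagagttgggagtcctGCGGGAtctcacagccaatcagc
Rec8 (chr14:55617916-55618165, plus strand): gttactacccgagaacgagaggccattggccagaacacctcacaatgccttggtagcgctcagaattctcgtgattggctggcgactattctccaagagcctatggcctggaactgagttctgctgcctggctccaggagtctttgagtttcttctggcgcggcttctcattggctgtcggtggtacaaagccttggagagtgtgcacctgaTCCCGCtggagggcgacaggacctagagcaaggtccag
Capn11 (chr17:45659310-45659559, minus strand): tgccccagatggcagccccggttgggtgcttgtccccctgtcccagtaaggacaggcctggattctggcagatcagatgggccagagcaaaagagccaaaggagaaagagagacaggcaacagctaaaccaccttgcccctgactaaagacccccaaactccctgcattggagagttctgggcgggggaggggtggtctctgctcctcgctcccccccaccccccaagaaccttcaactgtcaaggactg
Tex19.1 (chr11:121145893-121146142, plus strand): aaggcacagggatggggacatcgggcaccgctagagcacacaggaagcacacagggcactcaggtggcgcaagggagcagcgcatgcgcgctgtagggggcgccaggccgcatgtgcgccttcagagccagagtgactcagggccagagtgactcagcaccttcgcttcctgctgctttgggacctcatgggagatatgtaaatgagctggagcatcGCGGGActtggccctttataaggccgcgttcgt
The hexamer stood once in Cyct, Rec8 and Tex19.1 and not in Capn11. Among 9 genes looked up after their values were seen it was in those 3 alone, and not in Sohlh2, Trap1a (a testis gene of the X chromosome that is also higher by value), Meg3, Gfap or Slc32a1. It occurs on either strand in 16.9% of the 32851 promoters of that length, and nothing is drawn from these matches.

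Meg3 (chr12:110779211-110809937), a noncoding RNA of the imprinted Dlk1 cluster that is expressed from the maternal copy, had 123, 82.4 and 16.8 in mutant neurons at days 3, 7 and 14, against 29.7 at day 3, 29.037 and 20.6 at day 7 and 8.79 and 7.83 at day 14 in wild-type neurons. The level dropped over time in both genotypes and the mutant library was highest on each day, but its day 14 value lay below the wild-type values of days 3 and 7. The log2 change was 1.51 ± 0.23 (SE), with an adjusted p of 0.00727. Dlk1, the paternally expressed gene of the cluster, had 223, 56.2 and 43.3 in mutant neurons, against 181, 132, 143, 91.4 and 47.5 in wild-type neurons, with overlap and a log2 change of -0.60 ± 0.31 (SE; adjusted p = 0.617) in limma's fit of 8 libraries. Over the list of imprinted genes 26 of 38 entries had a change below 0 (51.9% of all genes tested), with a median of -0.11. Igf2, a growth factor expressed from the paternal copy, had 159, 54.9 and 39.1 in mutant neurons, against 362, 254, 123, 80.985 and 196 in wild-type neurons, and was below the wild-type libraries of its day each time (-1.53 ± 0.34 (SE; adjusted p = 0.267); not called). H19, its maternally expressed neighbour, had 1035, 149 and 189.5 in mutant neurons, against 577, 472, 254, 223 and 164 in wild-type neurons, which overlapped. On chromosome 11 the imprinted Grb10 and Zrsr1 had log2 changes of 0.60 and 0.59, above the median of that chromosome, and were not called. Wdfy1 (chr1:79698837-79772719), an endosomal protein that binds phosphatidylinositol 3-phosphate, had 8.41, 7.97 and 7.67 in mutant neurons, against 3.63, 3.06, 4.38, 3.29 and 2.95 in wild-type neurons. These values were nearly constant within a genotype, with a log2 change of 0.99 ± 0.12 (SE), with an adjusted p of 9.89e-04.

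**Figure D3:**
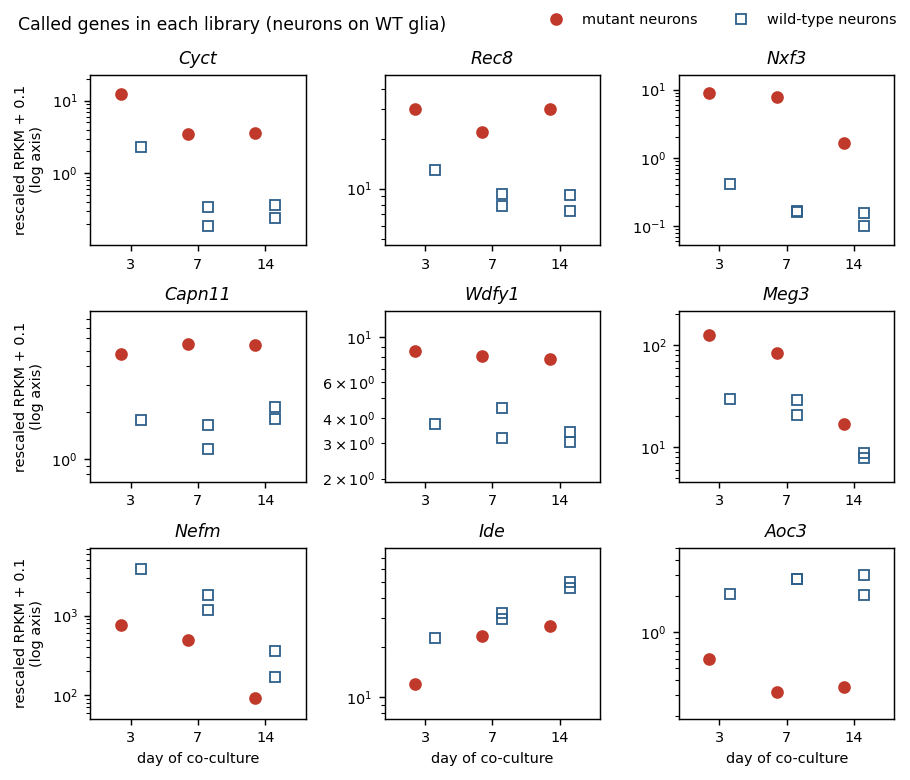
Level of 9 called genes (rescaled RPKM plus 0.1, log axis) by day of co-culture; filled circles are the libraries of mutant neurons and open squares those of wild-type neurons, 1 point a library. Cyct, Rec8, Nxf3, Capn11, Wdfy1 and Meg3 are above the wild-type libraries of the same day on all 3 days, and Nefm, Ide and Aoc3 below them.

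The medium neurofilament subunit was called lower in the 20-library model, though in 5 of its 17 alternatives only and not in the 8 libraries alone. Nefm (chr14:68700647-68742904, a listed span that also covers Nefl) had 759.7, 499.7 and 91.3 in mutant neurons at days 3, 7 and 14, against 3927 at day 3, 1809.7 and 1187 at day 7 and 167 and 360.2 at day 14 in wild-type neurons. Within each day the mutant library was lower, and across days the level dropped in both genotypes. The neuronal marker sum, which includes Nefm, was also lowest at day 14. In mutant neurons, though, that sum was 7884 at day 3 and 8044 at day 7. The log2 change was -1.72 ± 0.34 (SE), with an adjusted p of 0.0426. The call was lost on leaving out any of the 8 libraries other than replicate 1 of wild-type day 14. Its neighbour Nefl, the light subunit, had 2072, 2917 and 561 in mutant neurons, against 1579, 1058, 1481, 247 and 579 in wild-type neurons, with a log2 change of 0.76 ± 0.35 (SE; adjusted p = 0.576) in limma's fit of 8 libraries. The heavy subunit Nefh, on chromosome 11, had 19.4, 101 and 53.3 in mutant neurons, against 20.3, 43.5, 54.8, 16.6 and 41.5 in wild-type neurons, and 0.72 ± 0.32 (SE; adjusted p = 0.56). Neither Nefl nor Nefh was called, and their groups overlapped. Per kilobase, Nefm was at 759.7 and Nefl at 2072 RPKM in mutant neurons of day 3, while they were at 3927 and 1579 in wild-type neurons of that day. Ide (chr19:37343233-37412343), the protease that degrades insulin and amyloid beta, was the other gene outside chromosome 11 that fell, with 11.8, 23.4 and 26.8 in mutant neurons at days 3, 7 and 14, against 22.7 at day 3, 29.6 and 32.1 at day 7 and 49.6 and 45.8 at day 14 in wild-type neurons. It was lower than the wild-type libraries of the same day each time, and its log2 change was -0.70 ± 0.13 (SE), with an adjusted p of 0.0385, a call that held in 5 of 17 alternatives and was lost on leaving out any 1 of the 8 libraries. One entry without a current gene name or chromosome, uc008ckf.1, fell, with a log2 change of -1.86 (adjusted p = 3.01e-05). It had 0.115, 0 and 0.220 in mutant neurons, against 3.94, 3.16, 3.71, 2.25 and 2.53 in wild-type neurons, so only wild-type ones of the 8 reached the minimum for testing. It was called in the 8 libraries alone as well (-1.90 ± 0.18 (SE; adjusted p = 0.0365), limma). That call of the 8 libraries was lost with values as deposited, at a pseudocount of 0.1, with no filter, with voom and without day 3. It was also lost on leaving out any 1 library other than the mutant one of day 14. In the 20-library model the call held with no filter.

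Genes of motor neuron identity gave no call. None of the 19 tested of 20 was called, 12 of 19 had a change above 0, and the median was 0.06. Mnx1, the homeobox factor that maintains motor neuron fate, had 96.4, 65.7 and 9.59 in mutant neurons, against 159, 42.9, 60.9, 3.51 and 11.8 in wild-type neurons. Isl1, another such factor, had 25.7, 34.7 and 3.03 in mutant neurons, against 50.7, 21.9, 25.2, 3.14 and 2.71 in wild-type neurons, and Chat, the enzyme that makes acetylcholine, had 16.8, 14.1 and 4.36 in mutant neurons, against 24.9, 11.4, 9.68, 2.56 and 6.01 in wild-type neurons. The groups overlapped for all 3, whose log2 changes were 0.11 ± 0.36, -0.05 ± 0.24 and 0.03 ± 0.25 (SE). The 20 general neuronal genes had a median of 0.07, with 13 of 20 above 0 and only Nefm called, and 19 synaptic genes a median of 0.05. Each of these 3 medians changed sign in 2 or 3 of 16 alternatives.

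Markers of interneurons and inhibitory transmission were higher by value without single calls. All 13 of the 13 tested of 26 listed had a change above 0, with a median of 0.60 against -0.01 over all genes tested. Of the 13, 1 (Slc6a5) reached the minimum of 1 RPKM in mutant libraries only, and so passed the filter through them. Pax2 reached it in 1 wild-type library only, that of day 3, so it too met the minimum of 2 libraries with mutant ones. How many other members did so was not counted. The median was 0.12 with no filter and 0.24 without day 3. Slc32a1, the transporter that loads GABA and glycine into vesicles, had 17.3, 7.88 and 3.87 in mutant neurons at days 3, 7 and 14, against 2.30 at day 3, 1.86 and 2.49 at day 7 and 2.10 and 2.82 at day 14 in wild-type neurons, and was above every wild-type library in all 3 mutant libraries. Pax2, a transcription factor of dorsal and ventral inhibitory interneurons, had 17.2, 3.26 and 0.412 in mutant neurons, against 4.10, 0.708, 0.754, 0.147 and 0.136 in wild-type neurons. It dropped steeply with time in both genotypes, and the mutant library was highest on each day. Slc6a5, the glycine transporter of inhibitory terminals, had 3.54, 1.38 and 0.374 in mutant neurons, against 0.532, 0.341, 0.320, 0.128 and 0.224 in wild-type neurons, and Gad2, which makes GABA, had 3.16, 3.83 and 1.38 in mutant neurons, against 1.30, 1.69, 2.28, 0.656 and 1.25 in wild-type neurons, again with the mutant library highest on each day. By limma in the 8 libraries the log2 changes were 1.40 ± 0.31 (SE; adjusted p = 0.269), 1.09 ± 0.26 (SE; adjusted p = 0.274), 0.82 ± 0.23 (SE; adjusted p = 0.362) and 0.60 ± 0.18 (SE; adjusted p = 0.384). Lhx1 and Tal1, transcription factors of interneuron precursors, had log2 changes of 0.88 and 0.65. On mutant glia the list's median was 0.57. Receptors for glutamate, GABA, glycine and acetylcholine had a change above 0 in 26 of 29 (median 0.25; 0.18 without the 5 on chromosome 11) and voltage-gated channels in 26 of 31 (median 0.18), and none was called. Both medians rest on 1 library: without the mutant library of day 7 they were -0.006 and -0.014. Glra1, a glycine receptor subunit on chromosome 11, had 0.81 and Gabrb1, a GABA receptor subunit, 0.68. On mutant glia the medians of these lists were 0.11 and 0.002.

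Shh, Foxa2 and Nkx2-2, picked after their values were seen from a progenitor list that was mixed as a whole, were lower by value. Shh, the signal that patterns the ventral cord, had 9.19, 22.4 and 7.13 in mutant neurons at days 3, 7 and 14, against 11.6 at day 3, 54.7 and 43.8 at day 7 and 20.7 and 61.994 at day 14 in wild-type neurons. Foxa2, a floor plate transcription factor, had 1.57, 3.61 and 0.872 in mutant neurons, against 1.85, 19.995, 11.4, 4.74 and 13.8 in wild-type neurons, and Nkx2-2, which marks the most ventral neural progenitors, had 1.54, 1.42 and 5.70 in mutant neurons, against 3.13, 9.88, 4.49, 12.4 and 11.8 in wild-type neurons. For each of the 3 the mutant library was lowest on every day. Their log2 changes were -1.27 ± 0.41 (SE; adjusted p = 0.401), -1.53 ± 0.44 (SE; adjusted p = 0.365) and -1.15 ± 0.26 (SE; adjusted p = 0.271) by limma in 8 libraries, so none was called. The list of 17 progenitor genes that held them was mixed, with 9 of 17 above 0: Hes5, a Notch target of neural progenitors, and Pax6, of intermediate and dorsal progenitors, had changes of 0.59 and 0.62. The Hedgehog pathway list, which holds Shh too, had a median of -0.03. Among bone morphogenetic protein genes, Bmp4 had 3.34, 4.96 and 36.3 in mutant neurons, against 6.08, 34.7, 34.5, 52.3 and 35.5 in wild-type neurons, and its antagonist Nog, on chromosome 11, had 36.2, 16.4 and 20.1 in mutant neurons, against 20.4, 9.49, 9.64, 11.2 and 9.73 in wild-type neurons, with log2 changes of -1.22 and 0.80 (not called). Bmp4 overlapped at day 14. Both were picked after their values were seen from a list of Wnt, TGF-beta and BMP genes that was mixed. In that list 13 of 24 were above 0 and 11 below, with a median of 0.11, or -0.006 without its 3 genes on chromosome 11. In the retinoic acid list 8 of 15 were below 0 and 7 above, up to 0.96. By limma in the 8 libraries 4 of the lower and 2 of the higher had an unadjusted p under 0.05. The 3 members named next are lower ones, picked after their values were seen. The retinoic acid binding proteins Crabp1 and Crabp2 had log2 changes of -1.37 ± 0.37 (SE; adjusted p = 0.348) and -1.08 ± 0.19 (SE; adjusted p = 0.228), and the transglutaminase Tgm2 -1.07 ± 0.23 (SE; adjusted p = 0.267) (limma, 8 libraries), with the mutant library lowest on each day for all 3. Crabp2 stood at 159.7, 70.5 and 16.7 in mutant neurons, against 354, 170.2, 108, 33.6 and 45.3 in wild-type neurons.

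Hox genes, which set position along the body axis, were mixed. The Hoxb cluster lies on chromosome 11, and Hoxb4 had 53.6, 41.2 and 21.6 in mutant neurons, against 21.7, 32.6, 20.3, 15.3 and 15.8 in wild-type neurons and Hoxb5 154, 83.5 and 28.4 in mutant neurons, against 34.2, 53.2, 48.3, 19.3 and 21.8 in wild-type neurons, with log2 changes of 0.75 and 1.00. These were the Hox genes with the lowest p and do not stand for the cluster. Of the 24 tested, 9 lie on chromosome 11 but only 6 of 24 had a change above 0, so not all of the 9 rose. The other 18 of 24 had a change below 0. The median was -0.24, and -0.30 without the genes on chromosome 11. Hoxa7 had the lowest change, -0.78, with 5.08, 1.33 and 1.95 in mutant neurons, against 12.9, 3.13, 1.82, 2.69 and 5.31 in wild-type neurons. None was called.

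**Figure D4:**
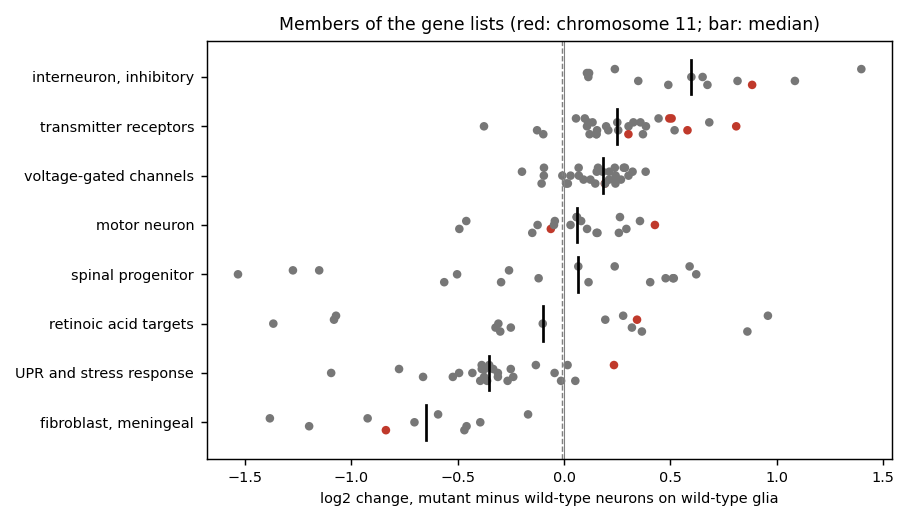
Log2 change between mutant and wild-type neurons on wild-type glia (horizontal axis) of the tested members of 8 gene lists (rows); each point is a gene, red on chromosome 11, the bar is the list's median and the dashed line the median of all genes. Interneuron genes have a median of 0.60 and fibroblast genes one of -0.65.

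Genes of the unfolded protein and integrated stress responses, which slow protein synthesis and refold proteins under stress, were lower by value. A change below 0 was found in 22 of 25 entries, against 51.9% of all genes tested, with a median of -0.35. The mutant library was below every wild-type library of its day on all 3 days for 10 of them (7.58% of all genes). Atf4, the transcription factor at the centre of the integrated stress response, had 72.2, 51.6 and 57.7 in mutant neurons, against 88.4, 91.8, 82.2, 71.7 and 91.3 in wild-type neurons, and its target Atf5 34.8, 18.6 and 33.4 in mutant neurons, against 56.1, 73.1, 27.951, 75.7 and 88.3 in wild-type neurons. The mutant library was the lowest on each day for both. Trib3, a pseudokinase induced by Atf4, had 3.16, 2.15 and 3.18 in mutant neurons, against 3.79, 4.15, 2.80, 10.2 and 11.4 in wild-type neurons, in which the day 3 and 7 libraries lie close to the wild-type ones. The log2 changes were -0.52 ± 0.15 (SE; adjusted p = 0.366), -1.10 ± 0.29 (SE; adjusted p = 0.343) and -0.78 ± 0.25 (SE; adjusted p = 0.399) by limma, none of them called, and on mutant glia the list's median was -0.23. Heat shock genes had a median of -0.07, genes of oxidative stress defence -0.22 and glycolytic and hypoxia genes -0.21. Mouse Sod1, on chromosome 16, had 538, 157 and 196 in mutant neurons, against 405, 241, 163, 163 and 155 in wild-type neurons, and a log2 change of 0.10 ± 0.21 (SE). The transgene is human and is not an entry of these mouse gene models, so this value does not check the genotype labels. Genes mutated in familial disease had a median of -0.03, with none called.

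Markers of other cells moved beside these lists. Fibroblast and meningeal genes had a change below 0 in 10 of 10 tested of 11 listed, with a median of -0.65, which was -1.20 without the mutant library of day 14 and -0.07 without that of day 7. Dcn, the matrix proteoglycan decorin, had 2.50, 6.18 and 5.05 in mutant neurons, against 8.47, 25.986, 17.4, 15.5 and 9.08 in wild-type neurons, and no mutant library reached a wild-type one. Pdgfrb, a growth factor receptor of pericytes and fibroblasts, had 1.28, 0.687 and 3.89 in mutant neurons, against 2.00, 2.52, 1.90, 6.17 and 8.01 in wild-type neurons, in which the mutant library was the lowest on each day. The log2 changes were -1.38 ± 0.22 (SE; adjusted p = 0.199) and -0.70 ± 0.17 (SE; adjusted p = 0.275) by limma in 8 libraries (not called). The summed level of the list nevertheless overlapped, as given above, and was highest of all in the mutant library of day 14. Its part in the other lists was not tested. Of 12 astrocyte genes 7 of 12 were above 0. Gfap, the intermediate filament of astrocytes, on chromosome 11, had 13.967, 7.80 and 131 in mutant neurons at days 3, 7 and 14, against 5.39 at day 3, 2.08 and 2.95 at day 7 and 22.4 and 28.4 at day 14 in wild-type neurons, and Aldh1l1, a folate enzyme used as an astrocyte marker, had 28.1, 22.9 and 119.9 in mutant neurons, against 5.92, 13.1, 9.26, 81.035 and 88.7 in wild-type neurons. Both were above the wild-type libraries of the same day on all 3 days, with log2 changes of 1.67 ± 0.23 (SE; adjusted p = 0.132) and 1.11 ± 0.26 (SE; adjusted p = 0.274), and neither was called. The median of the astrocyte list was 0.19, and -0.11 without its 3 genes on chromosome 11. Olig1, a factor of the motor neuron and oligodendrocyte lineage, had 12.7, 8.24 and 137 in mutant neurons, against 5.89, 6.57, 3.57, 44.3 and 52.4 in wild-type neurons, and a change of 1.05 ± 0.22 (SE; adjusted p = 0.258), while the 12 oligodendrocyte genes had a median of -0.04. Microglial genes had a median of 0.16 (-0.36 to 0.56 over the alternatives) and genes of pluripotency one of 0.24, with 19 of 22 above 0, which was 0.01 without the mutant library of day 7. Interferon response genes (-0.06), antigen presentation (-0.04), cytokines and chemokines (0.04), complement (-0.10), cell cycle (-0.12), p53 and apoptosis (-0.13), cholesterol synthesis (-0.07) and nuclear genes of the respiratory chain (-0.06) had medians between -0.13 and 0.04, with no member called. Of these, p53 and cholesterol genes alone kept their sign in all 16 alternatives. Gal, the neuropeptide galanin that injured neurons express, was the lowest-p member of the axon injury list, at 6.49, 13.6 and 31.1 in mutant neurons, against 5.13, 7.32, 5.33, 6.71 and 6.69 in wild-type neurons (log2 change 1.19 ± 0.29 (SE; adjusted p = 0.275)).

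The same contrast on mutant glia used 12 other libraries, and gave 10 calls (0.0688% of 14535), 8 higher and 2 lower in mutant neurons. Same-numbered libraries of the 2 genotypes deviated together on all 3 days there (correlations of 0.49 to 0.75), and with the replicate number as a block limma called 294 genes, 229 higher and 65 lower, of which 162 and 2 lie on chromosome 11. Of the 10 without the block, 9 were among the 42 called on wild-type glia with the spread of 20 libraries, to which those 12 also contribute. The model of 20 libraries is therefore not independent of this one. The 8 libraries share none with it, but whether their neurons came from the same batches is not given. Same-numbered libraries of wild-type neurons on the 2 kinds of glia had correlations of 0.57 at day 7 and 0.50 at day 14. Between mutant neurons on mutant glia and wild-type neurons on wild-type glia they were 0.72 and 0.07. The 2 comparisons therefore cannot be taken as independent. Over the genes tested in both, the median change on mutant glia was 0.35 on chromosome 11, against -0.04 on the other chromosomes. Across genes, which are not independent replicates, the changes on the 2 kinds of glia had a Pearson correlation of 0.66 over 1078 chromosome 11 genes and of 0.61 over 11902 genes elsewhere, where 92.3% and 64.5% had the same sign. Cyct, Rec8, Meg3, Nefm and Aoc3 had changes of 2.10, 1.14, 1.53, -1.51 and -1.49 on mutant glia. Cyct and Nefm were not called there (limma, adjusted p = 0.0656 and 0.0837).

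**Figure D5:**
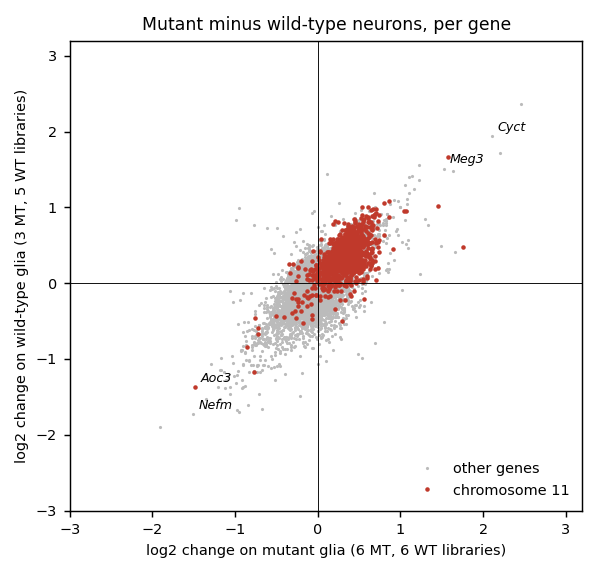
Log2 change of each gene between mutant and wild-type neurons on wild-type glia (vertical axis) against that on mutant glia (horizontal axis), from libraries that the 2 comparisons do not share; chromosome 11 genes are red. The chromosome 11 genes centre on 0.36 and 0.35.

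Whether the effect of the neurons' genotype depended on the glia was tested in 1 model. No gene passed the test of a difference between wild-type and mutant glia (limma, 0 of 14881; 147 genes, or 0.988%, had an unadjusted p under 0.05, and limma voom on recovered reads also called 0). The median difference was 0.03 on chromosome 11 and 0.01 elsewhere. The difference of the effect between day 14 and day 3 on wild-type glia, which rests on 1 mutant library at each day, gave no call either (0 of 14881, with 287 or 1.93% at an unadjusted p under 0.05, and 0 by voom), and its median on chromosome 11 was -0.04, against 0.01 elsewhere. A p over the threshold does not show that the effects were equal.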

How the data were processed

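RNA sequencing libraries of cultured mouse neurons were compared: 8 in the comparison itself, and 12 of neurons on mutant glia for the spread and for the test of a difference. Groups, days and replicate numbers are from the labels. Per the labels' protocols, Trizol and RNeasy were used for the RNA, and libraries followed a standard Illumina or the Nextera method, which of them for each library not being given. Bowtie and mm9 are named in the submitters' processing notes. The deposited culture values are read as RPKM from the values themselves, and the counter and gene models are not given in the sources used here. For 99.97% of 22784 entries above 0, the deposited values came out as whole read counts (within 0.01 of a read), which were used for depth and for limma voom. Chromosomes and mm9 positions come from the authors' spinal cord table, matched by symbol (91.0% of tested entries), whose deposited values, a score with negative entries, were not used.

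Values were divided by median-of-ratios factors and taken as log2(value + 1), which understates log2 changes of low genes. Genes reaching 1 in 2 or more libraries were fitted with limma 3.58.1 (R 4.3.3, eBayes with trend) on pairing and day, and a gene was called where the adjusted p (Benjamini-Hochberg) was below 0.05. The scripts were tested on simulated data. The 2 wild-type libraries of day 7 differed by 20.0 times, and those of day 14 by 11.7 times, the spread of counting noise, so neither pair was a copy. Same-numbered libraries of both genotypes on mutant glia deviated together on each day (correlations of 0.49 to 0.75), a pairing read from the data, so the blocked count is given for them. Mutant neurons on wild-type glia had 1 library a day, whose spread is assumed to be that of the other libraries.

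The genes, lists and comparisons were chosen with earlier results of these data known. The rule for naming took called genes with 1 entry and a chromosome, non-overlapping groups and 1 sign on all days, up to 12 in each direction off chromosome 11 and 8 higher and 4 lower on it, which gave Cyct alone in the 8 libraries. The same rule was then applied to the calls of the 20-library model, with Meg3, Nefm and Ide added although their groups overlap across days, and further list members were named after their values were seen.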

Additional observations from a re-analysis of the deposited data

Results flagged for a closer look

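In 25 sets of 4 or more libraries of 1 group, the gap of the most extreme library to the next was set against the whole range. By chance about 1 in 20 such sets would stand out, and 2 did. For Cyct, the wild-type library of day 3 (2.20 RPKM, 12 reads) stood apart from the other 4 wild-type libraries (0.0907 to 0.261 RPKM), with a gap of 0.865 of the range on the log2 scale. For Nxf3 the same library (0.321 RPKM, 8 reads) stood apart, with a gap of 0.757 of the range, the others being at 0 to 0.0701 RPKM. Day is part of these groups, and the mutant libraries of day 3 were also the highest for both genes.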

How the results depend on the processing

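The median change on chromosome 11, relative to the other chromosomes, was 0.39 and stayed positive in all 18 alternatives. It moved by more than 0.0364, the SD between libraries of a group, in 4 of them: 0.44 at a pseudocount of 0.1, 0.29 with no filter on low values, 0.43 at a mean of 5 or more and 0.44 with limma voom on recovered reads. Leaving out single libraries gave 0.37 to 0.42.

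The count of 2 called genes in the 8 libraries was 1 with values as deposited, 1 with no filter, 1 with voom, 0 at a pseudocount of 0.1, 0 at a mean of 5 or more, 0 without day 3 and 0 to 2 on leaving out single libraries. The 1 call with voom was a higher gene other than Cyct, so neither of the 2 was called there. Without the mutant library of day 14 the higher call was not Cyct either. With the spread of all 20 libraries it was 42. That count in turn was 4 (2 higher and 2 lower, against 38 and 4) with values as deposited, 63 with voom, 44 at a pseudocount of 0.1, 46 with no filter, 57 at a mean of 5 or more, 4 with means of each pairing and day, 5 without day 3, 5 without the replicate 1 libraries of day 3, and 6 to 26 on leaving out single libraries. These alternatives of the 20-library model were chosen after seeing the data. Of its 42 genes, Aoc3, Rec8 and uc008ckf.1 were called in 16 of 17 alternatives, Wdfy1 in 15, Nxf3 in 14, Capn11 in 12, Meg3 in 11, Nefm and Ide in 5, Ghdc in 4, Gp1ba in 3, Car10 in 2 and Cyct in 1. The causes were not tested.

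Replicate numbers are shared across groups. A replicate block gave 1 call in 8 libraries and 228 in 20 (210 higher and 18 lower, of which 179 and 1 on chromosome 11), and 294 on mutant glia. The labels do not say that numbers pair the libraries. Same-numbered libraries deviated together in 6 of 7 pairs of groups (lowest correlation 0.0712), none of which includes mutant neurons on wild-type glia, so the block was not used for that comparison.

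The 10 calls on mutant glia became 3 with values as deposited, 4 at a mean of 5 or more and 63 with voom. The difference between glia gave 0 calls in all 14 alternatives, replicate block included, and that between days gave 37 with no filter on low values and 0 in its other 5. Of 72 named genes recomputed, 5 changed direction, none of them called: on leaving out single libraries Sod1 was at -0.0203 to 0.352, Chat at -0.170 to 0.246, Mnx1 at -0.161 to 0.416, Isl1 at -0.381 to 0.292 and H19 at -0.610 to 0.357. Without day 3 Sod1 was at -0.0120 and Isl1 at 0.292, and with the replicate block of 20 libraries H19 was at 0.0175. Of the list medians, those of receptors, channels, pluripotency and fibroblast genes came near 0 or crossed it without the mutant library of day 7 (-0.0062, -0.014, 0.013 and -0.075), that of progenitors was -0.40 at a mean of 5 or more, that of retinoic acid targets -0.33 without day 3 and 0.082 with all 20 libraries, and that of interneuron markers 0.12 with no filter and 1.40 at a mean of 5 or more.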

Other observations

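Trap1a, a tumour rejection antigen gene on the X chromosome that is known from the testis and placenta, stood at 26.3, 9.96 and 10.6 RPKM in mutant neurons at days 3, 7 and 14, against 18.025 at day 3, 1.38 and 0.755 at day 7 and 1.49 and 2.75 at day 14 in wild-type neurons. The mutant library was highest on each day, and the log2 change of 1.72 ± 0.33 (SE) was not called in limma's fit of the 8 libraries (adjusted p = 0.236). L1td1, an RNA-binding protein of pluripotent cells, had 6.94, 2.40 and 0.562 RPKM in mutant neurons, against 5.32, 0.106, 0, 0.0313 and 0.405 in wild-type neurons, and Dnmt3l, a cofactor of germline DNA methylation, had 14.7, 2.98 and 0.877, against 9.22, 0.0633, 0.0477, 0.0371 and 1.37. Neither was called, and Dnmt3l overlapped at day 14. These genes were chosen after their values were seen.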
